A study of Mus musculus with 18 samples.

Results

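The glycolytic isozymes measured here are enzymes that carry out the same step of glucose breakdown in different tissues. The list held 8 gene symbols (Hk1, Hk2, Pfkm, Pfkl, Pfkp, Aldoa, Pkm and Pklr), and every array probe annotated to one of them was taken. Of these symbols, 7 had a named probe, with 16 probes among the 45281 on the array, and these 7 stand among 19057 named genes. Detection on all 3 arrays of at least 1 group was required for a test, and 12 of the 16 probes met it, at least 1 for each of the 7 genes, among 21193 tested probes and 11406 tested genes. Hk2, a hexokinase of muscle and of many tumours, was not analysed here.

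Total RNA was measured on 18 mouse bead arrays in 6 groups of 3. The labels describe CD110+TICs, which are cells bearing the thrombopoietin receptor CD110 that were sorted with magnetic beads from colon tumours. The animals were C57Bl/6 mice, 17 weeks old, of the genotype Fapbl-Cre;Apc2lox14/+;tet-KrasLSL-G12D/+, and the labels do not say which promoter Fapbl stands for. The 3 labels FAK7, FAK1 and FAK5 stand for mouse 7, mouse 1 and mouse 5 in the submitters' naming, against which the sex-linked transcripts of FAK1 and FAK5 go, as described below. Cells of every group were kept with doxycycline. The groups are FAK7 treated and FAK7 untreated, FAK1 treated and FAK1 untreated, and FAK5 treated and FAK5 untreated, where treated means 1 µM U73122, a small molecule used to inhibit phospholipase C, for 24 h. The question of the design is what this inhibitor changes, and the isozymes were also compared between labels. Nothing in the labels says that replicates were separate cultures, so p-values measure the spread between arrays, which may be technical. In FAK1 and FAK5 this spread also spans untreated arrays that differ in sex-linked transcripts, and the treated arrays there do not differ in them.

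Glycolysis turns glucose into pyruvate, and its flow is set mainly at the one-way steps catalysed by hexokinase, phosphofructokinase and pyruvate kinase. Each of these enzymes exists in forms encoded by separate genes, with the M, L and P forms of phosphofructokinase named for muscle, liver and platelets. Liver is known for a pyruvate kinase (Pklr) that its switch between glucose use and glucose production can turn off, whereas muscle, fat and most tumours use the Pkm gene. Pklr is known to have separate start sites for the red cell and the liver form.

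The start regions of the pyruvate kinase genes are shown because these genes separated the labels in opposite directions. The windows are from RefSeq on GRCm38.p6 and span 250 bases before to 50 bases after an annotated start site. All 8 symbols matched the RefSeq table, with 16 windows among 32851. Both Pklr windows and the first Pkm window are printed 5′ to 3′ in lower case. Capitals mark a carbohydrate response element, an HNF1-type palindrome, ACGTG and the GC box GGGCGG, each searched on both strands.
Pklr window 1, chr3:89135892-89136191 (+): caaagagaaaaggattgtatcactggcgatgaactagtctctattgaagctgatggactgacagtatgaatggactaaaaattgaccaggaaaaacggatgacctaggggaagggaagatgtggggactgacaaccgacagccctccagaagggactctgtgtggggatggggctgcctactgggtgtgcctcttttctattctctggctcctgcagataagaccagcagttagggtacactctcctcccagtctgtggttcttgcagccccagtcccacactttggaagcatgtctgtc
Pklr window 2, chr3:89136373-89136672 (+): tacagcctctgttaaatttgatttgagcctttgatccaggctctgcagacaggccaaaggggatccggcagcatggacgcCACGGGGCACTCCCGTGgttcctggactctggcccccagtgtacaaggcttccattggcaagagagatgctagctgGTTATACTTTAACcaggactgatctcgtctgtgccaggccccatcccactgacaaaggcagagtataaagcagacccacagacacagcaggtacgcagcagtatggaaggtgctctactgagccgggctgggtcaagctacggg
Pkm window 1, chr9:59656326-59656625 (+): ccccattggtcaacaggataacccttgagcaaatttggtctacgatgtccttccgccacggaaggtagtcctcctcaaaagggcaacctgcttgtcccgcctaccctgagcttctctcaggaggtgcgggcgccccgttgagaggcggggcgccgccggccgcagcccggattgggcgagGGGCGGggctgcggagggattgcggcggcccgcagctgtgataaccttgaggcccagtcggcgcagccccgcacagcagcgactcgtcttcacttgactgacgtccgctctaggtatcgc
The capitals of Pklr window 2 are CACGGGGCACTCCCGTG, which begins 170 bases before the start site, and GTTATACTTTAAC, which begins 94 bases before it. The first matches the carbohydrate response element, bound by the glucose-responsive factor ChREBP, searched as CACGNG and CNCGTG with 5 bases between them, which occurs in 15 of the 32851 windows (0.0457%). The second matches the palindrome of the liver factor HNF1, searched as GTTA and TAAC with 5 bases between them, which occurs in 109 windows (0.332%). Neither occurs in any other window of the listed genes. GGGCGG lies in 6 of the 16 windows against 35.7% of all windows, and ACGTG, the core of the hypoxia response element, lies in 7 of 16 against 19.6% of all. None of the printed windows holds ACGTG, while the second Pkm window, which is not printed, holds 2 matches. Windows 2 and 3 of Aldoa overlap, so the same ACGTG and the same GC boxes count in both. CAGCTG, an E-box bound by myogenic factors, lies in 2 of 16 against 16.3% of all and was not capitalised. These matches describe letters in the windows.

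The 3 labels did not look like 1 tissue. Arrays of the same label correlated at 0.961 to 0.993 and arrays of different labels at 0.543 to 0.872. On all 6 FAK7 arrays 11 of 12 liver markers were detected (Fgb, a fibrinogen chain, on none). On all 6 FAK5 arrays 13 of 13 skeletal muscle markers were detected. On all 6 FAK1 arrays 7 of 9 brown fat markers and 8 of 9 markers of white or general fat were detected. Of 12 colon epithelium markers, 5 were detected on all arrays of FAK7, 1 on all of FAK1 and 1 on all of FAK5. On no array of the label were 4 of the 12 detected in FAK7, 7 in FAK1 and 6 in FAK5, with Epcam and Fabp2 among them each time. The remaining colon markers were detected on some arrays of a label. Because markers of other tissues were this widely detected, the labels are used below as names of array sets. Muscle markers were also unequal within FAK1, with a summed signal of 37822 to 110028 on its treated arrays and 388 to 32578 on its untreated arrays. Replicates of a label also differed in sex-linked transcripts: in FAK1 and FAK5, untreated replicates 1 and 3 carried Eif2s3y and the other arrays carried Xist, which goes against 1 mouse for each of these labels, and the FAK7 arrays all carried Eif2s3y.

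Hexokinase 1, the housekeeping form that phosphorylates glucose, was not detected on any FAK7 array. Values are background-corrected, quantile-normalized log2 signals, and they serve to compare arrays for 1 probe, not probes with each other. Hk1 read 4.47, 4.42 and 4.50 in FAK7 treated and 4.50, 4.57 and 4.82 in FAK7 untreated, all below detection. It read 5.72, 6.08 and 6.00 in FAK1 treated and 5.15, 5.37 and 5.88 in FAK1 untreated. It read 5.88, 5.35 and 5.47 in FAK5 treated and 5.24, 5.41 and 5.69 in FAK5 untreated. Every FAK7 array lay below every FAK1 and FAK5 array, while FAK1 and FAK5 overlapped. Hk1 was at least 1.74-fold lower in FAK7 than in FAK1 (limma, adjusted p = 5.16e-07) and at least 1.52-fold lower than in FAK5 (limma, adjusted p = 4.19e-06), where the bound sets each undetected array to the lowest detected signal if that is higher. The FAK1 minus FAK5 difference was 0.19 ± 0.14 on the log2 scale (SE, 6 arrays per label, limma adjusted p = 0.234). A second Hk1 probe stayed between 4.47 and 4.99 on all 18 arrays and did not enter the tests.

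The genes of phosphofructokinase, the committing step of glycolysis, ranked the labels in different orders. Pfkm, the muscle form, was highest in FAK5. It read 7.51, 7.80 and 7.89 in FAK7 treated and 7.89, 8.14 and 8.09 in FAK7 untreated. It read 11.27, 11.59 and 10.90 in FAK1 treated and 10.70, 10.59 and 10.86 in FAK1 untreated. It read 13.62, 13.73 and 13.71 in FAK5 treated and 13.76, 13.41 and 13.84 in FAK5 untreated. The 3 labels did not overlap, in the order FAK5 over FAK1 over FAK7. Pfkm was 8.55-fold lower in FAK7 than in FAK1 (log2 difference -3.10 ± 0.11 SE, limma adjusted p = 3.56e-14), 55.4-fold lower in FAK7 than in FAK5 (-5.79 ± 0.11, limma adjusted p = 3.77e-18) and 6.48-fold lower in FAK1 than in FAK5 (-2.69 ± 0.11, limma adjusted p = 1.03e-12), with 6 arrays per label. The other Pfkm probes gave the same order of labels. The second averaged 6.29 ± 0.13 in FAK7, 9.98 ± 0.46 in FAK1 and 13.21 ± 0.21 in FAK5, and the third averaged 5.16 ± 0.25, 5.93 ± 0.41 and 9.17 ± 0.36 in the same labels (SD, n = 6). The third probe differed less between FAK7 and FAK1 (-0.77 ± 0.18, limma adjusted p = 0.000895 over all tested probes) than the first did. Those labels overlapped on it, and 5 of 6 FAK7 arrays detected it.

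Pfkl, the liver form, was highest in FAK1, not in the label with liver markers. It read 9.46, 9.42 and 9.19 in FAK7 treated and 9.34, 9.25 and 9.41 in FAK7 untreated. It read 11.70, 11.76 and 11.76 in FAK1 treated and 11.76, 11.04 and 11.60 in FAK1 untreated. It read 7.50, 7.40 and 7.01 in FAK5 treated and 6.73, 6.77 and 6.68 in FAK5 untreated. The labels did not overlap, in the order FAK1 over FAK7 over FAK5. Pfkl was 4.78-fold lower in FAK7 than in FAK1 (-2.26 ± 0.11, limma adjusted p = 3.93e-12), 5.03-fold higher in FAK7 than in FAK5 (2.33 ± 0.11, limma adjusted p = 1.72e-12) and 24.1-fold higher in FAK1 than in FAK5 (4.59 ± 0.11, limma adjusted p = 1.76e-15). Its second probe lay between 4.30 and 5.38, was detected on 5 of 18 arrays and was not tested. The muscle and liver genes were also set against each other on each array. The Pfkm minus Pfkl difference was -1.46 ± 0.29 in FAK7, -0.62 ± 0.33 in FAK1 and 6.66 ± 0.40 in FAK5 (SD, n = 6 arrays). Because it sets a probe against another probe, only its shift between labels can be read, and FAK5 lay 8.12 log2 units above FAK7.

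Pfkp, the platelet form, was highest in FAK1. It read 6.70, 5.96 and 5.91 in FAK7 treated and 5.50, 5.43 and 5.77 in FAK7 untreated. It read 7.91, 8.07 and 8.19 in FAK1 treated and 8.08, 8.31 and 8.41 in FAK1 untreated. It read 5.87, 6.29 and 6.14 in FAK5 treated and 6.42, 6.08 and 6.62 in FAK5 untreated. FAK1 stood above both other labels without overlap, while FAK7 and FAK5 overlapped. Pfkp was 4.87-fold lower in FAK7 than in FAK1 (-2.28 ± 0.15, limma adjusted p = 1.53e-10) and 3.80-fold higher in FAK1 than in FAK5 (1.93 ± 0.15, limma adjusted p = 3.05e-09). The FAK7 minus FAK5 difference was small (-0.36 ± 0.15, limma adjusted p = 0.0338). It was 0.088 in the treated groups alone (limma adjusted p = 0.719) and -0.81 in the untreated groups alone (limma adjusted p = 0.00225), and it missed the threshold without 8 of the 12 arrays of these labels, taken singly (-0.35 to -0.29). On the second Pfkp probe, which was detected on no FAK7 or FAK5 array and on all 6 FAK1 arrays, expression was at least 1.90-fold lower in FAK7 than in FAK1 and at least 2.00-fold higher in FAK1 than in FAK5. Another probe, between 4.39 and 5.35, was detected on 1 array of 18.

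**Figure D1:**
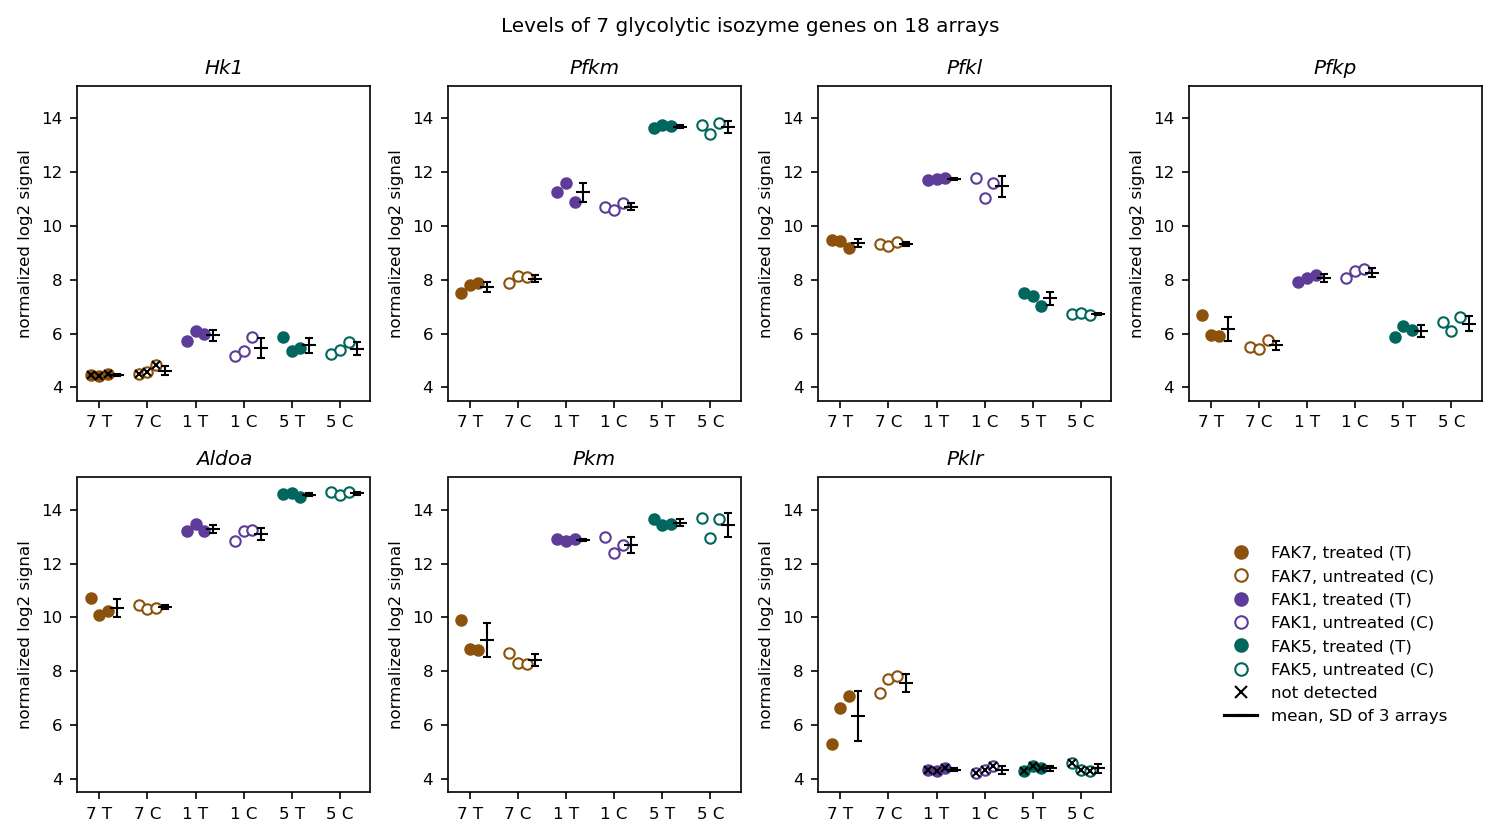
Normalized log2 signal (vertical axis) of the brightest probe of each of 7 glycolytic isozyme genes on 18 arrays, by label and treatment (T treated, C untreated, with 7, 1 and 5 for FAK7, FAK1 and FAK5). Points are arrays, crosses mark arrays below detection, and bars are the mean and SD of 3 arrays. Pfkm is highest in FAK5, Pfkl and Pfkp are highest in FAK1, and Pklr is detected in FAK7 alone.

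Aldoa, the aldolase of muscle and of most other tissues, was highest in FAK5 and lowest in FAK7. It read 10.73, 10.10 and 10.23 in FAK7 treated and 10.48, 10.31 and 10.37 in FAK7 untreated. It read 13.21, 13.46 and 13.22 in FAK1 treated and 12.85, 13.20 and 13.25 in FAK1 untreated. It read 14.59, 14.61 and 14.49 in FAK5 treated and 14.65, 14.56 and 14.65 in FAK5 untreated. No label overlapped another. Aldoa was 7.11-fold lower in FAK7 than in FAK1 (-2.83 ± 0.10, limma adjusted p = 2.08e-14), 18.6-fold lower in FAK7 than in FAK5 (-4.22 ± 0.10, limma adjusted p = 5.5e-17) and 2.62-fold lower in FAK1 than in FAK5 (-1.39 ± 0.10, limma adjusted p = 1.06e-09). The FAK5 values lie close to 14.77, the brightest value on the normalized scale. Aldoa has 1 probe.

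Pyruvate kinase makes pyruvate in the last step, and its genes separated FAK7 from the other labels in opposite directions. Pkm encodes the M1 and M2 forms of muscle, fat and tumours, which arise by splicing, and which of them each probe reads is not given in the sources used here. Pkm read 9.90, 8.82 and 8.80 in FAK7 treated and 8.68, 8.31 and 8.29 in FAK7 untreated. It read 12.92, 12.84 and 12.90 in FAK1 treated and 13.00, 12.41 and 12.69 in FAK1 untreated. It read 13.67, 13.42 and 13.48 in FAK5 treated and 13.70, 12.94 and 13.66 in FAK5 untreated. FAK7 lay below both other labels without overlap, and FAK1 and FAK5 overlapped. Pkm was 15.9-fold lower in FAK7 than in FAK1 (-3.99 ± 0.18, limma adjusted p = 6.64e-13) and 25.6-fold lower in FAK7 than in FAK5 (-4.68 ± 0.18, limma adjusted p = 5.08e-14). The Pkm probes disagreed on FAK1 against FAK5. The brighter gave -0.69 ± 0.18 (limma adjusted p = 0.00257), the dimmer 0.76 ± 0.13 (limma adjusted p = 7.34e-05 over all tested probes), and their mean 0.034 (limma adjusted p = 0.843). The dimmer probe was detected on no FAK7 array, on 6 FAK1 arrays and on 4 FAK5 arrays. On it Pkm was at least 1.86-fold lower in FAK7 than in FAK1 and at least 1.10-fold lower in FAK7 than in FAK5. The large folds above thus rest on the brighter probe.

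Pklr, whose printed second window holds the carbohydrate response element, was detected by its brightest probe in FAK7 alone. It read 5.30, 6.63 and 7.10 in FAK7 treated and 7.19, 7.70 and 7.83 in FAK7 untreated. It read 4.34, 4.29 and 4.39 in FAK1 treated and 4.21, 4.32 and 4.48 in FAK1 untreated, all below detection. It read 4.30, 4.47 and 4.41 in FAK5 treated and 4.59, 4.32 and 4.28 in FAK5 untreated, all below detection. Every FAK7 array lay above every array of the other labels, with treated replicate 1 the lowest of the FAK7 arrays. Pklr was at least 4.38-fold higher in FAK7 than in FAK1 (limma, adjusted p = 4.17e-09) and at least 4.44-fold higher in FAK7 than in FAK5 (limma, adjusted p = 4.31e-09). FAK1 and FAK5 are both below background for Pklr and their order is not known. The second Pklr probe read 5.38, 5.81 and 6.18 in FAK7 treated and 6.36, 6.72 and 6.83 in FAK7 untreated, was at least 2.61-fold higher in FAK7 than in FAK1, and was detected on 1 of 12 FAK1 and FAK5 arrays. Another probe, between 4.24 and 4.85, did not pass the detection filter. Red cell RNA also carries Pklr, and 3 of 5 erythroid markers were detected on all FAK7 arrays, against 4 of 5 on all arrays of FAK1 and of FAK5. The part of red cell RNA in the Pklr signal was not tested.

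Counted over the genes, all 7 differed between FAK7 and FAK1, 1 higher and 6 lower in FAK7. Among all tested genes 75.7% differed, 35.3% higher and 40.3% lower, so the share called is not particular to these genes. A difference of at least 4-fold was found for 6 of the 7 genes, against 14.5% of all genes, and the median size of the difference was 2.62 for the 7 genes and 0.70 for all genes on the log2 scale. Between FAK7 and FAK5, 7 of 7 differed (80.5% of all genes), 2 higher (40.0%) and 5 lower (40.5%), and 5 of 7 by at least 4-fold (19.4%). The median size was 2.56 for the 7 genes and 0.84 for all genes. Between FAK1 and FAK5, 5 of 7 differed (60.7% of all genes), 2 higher (32.9%) and 3 lower (27.8%), and 2 of 7 by at least 4-fold (7.98%). The median size was 1.39 for the 7 genes and 0.45 for all genes. Label groups did not overlap for 7 of 7 genes in FAK7 against FAK1 (56.9% of all genes), 6 of 7 in FAK7 against FAK5 (61.3%) and 4 of 7 in FAK1 against FAK5 (37.8%). By probe, 12, 11 and 9 of 12 differed in the same order of comparisons, against 74.6%, 79.1% and 58.5% of all tested probes. The 3 comparisons share arrays, so their counts are not independent. The brightest probe of Pklr passed the detection filter through the FAK7 groups alone, and that of Hk1 through the FAK1 and FAK5 groups alone. Their directions in the comparisons of FAK7 were thus largely set by the filter and add no support. Restricted to untreated arrays that carry Eif2s3y, which leaves 3 arrays of FAK7 and 2 each of FAK1 and FAK5, the counts were again 7, 7 and 5 of 7, with the same directions. In the same order, 7622, 8397 and 5891 of all 11406 genes were called. Pfkp in FAK7 minus FAK5 was then -0.95 (limma adjusted p = 0.000677) and Pkm in FAK7 minus FAK1 was -4.42 (limma adjusted p = 6.66e-10).

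**Figure D2:**
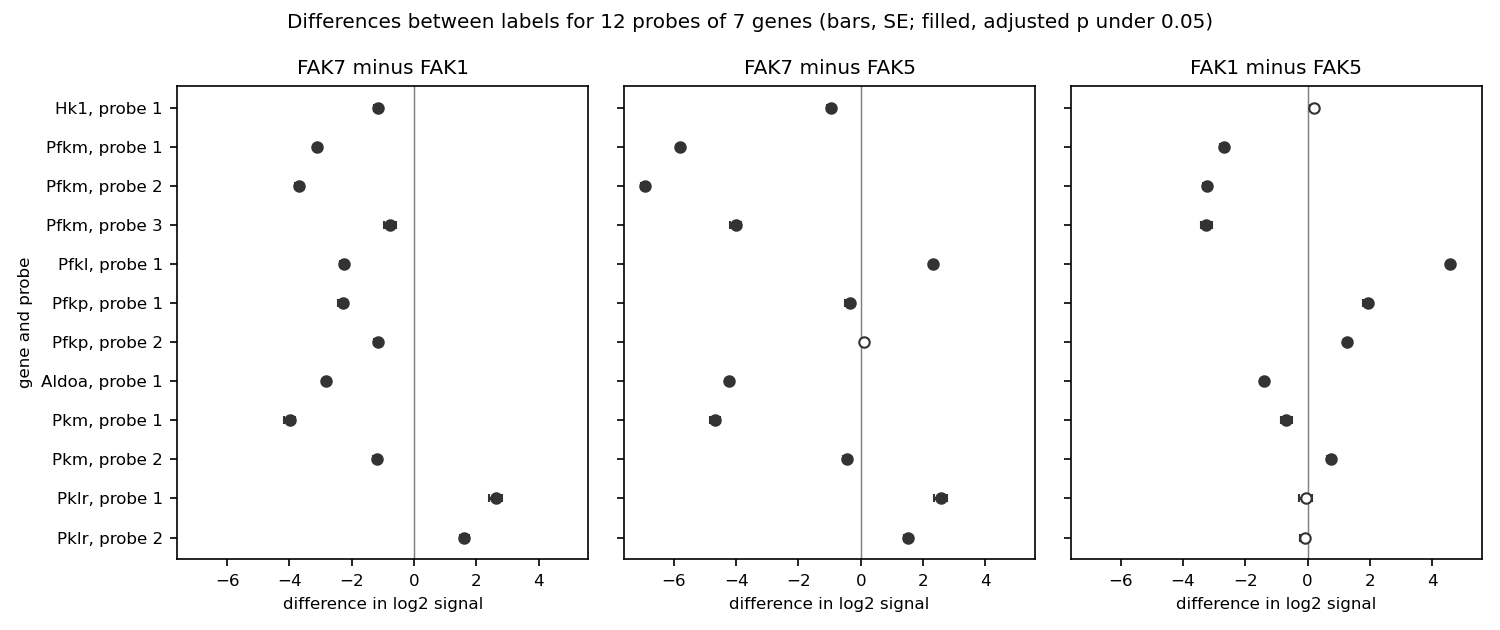
Difference in log2 signal between labels (horizontal axis) for the 12 tested probes of 7 genes, in 1 panel per comparison. Bars are SE, and filled points have a limma adjusted p under 0.05. Pklr lies to the right of 0 and Pkm to the left in both comparisons of FAK7, and Pfkl lies to the right and Pfkm to the left in FAK1 minus FAK5.

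U73122 treatment gave no called difference in any of the 7 genes. In the limma fit, 0 of 7 passed an adjusted p of 0.05 in FAK7 (0.57% of all genes), 0 of 7 in FAK1 (0.885%), 0 of 7 in FAK5 (0.0701%) and 0 of 7 over the 3 labels together (0%). At an unadjusted p under 0.05 there were 3 of 7 in FAK7 (10.3% of all genes), 2 of 7 in FAK1 (11.5%), 1 of 7 in FAK5 (11.3%) and 0 of 7 over the 3 labels (5.39%). By probe, 0 of 12 passed in each label and over all 3, against 0.656%, 0.67%, 0.146% and 0% of all tested probes. Over the 3 labels the differences nearest to the threshold were Pkm (0.34 ± 0.14) and Pfkl (0.29 ± 0.13), each with a limma adjusted p of 0.817. No average over labels is given for Pklr, whose brightest probe was detected in FAK7 alone. The counts include Hk1 in FAK7 and Pklr in FAK1 and FAK5, which compare background signal, so a fall could not be seen there.

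In FAK7 the treated and untreated arrays did not overlap for 4 of 7 genes, against 19.7% of all genes. Pfkm is among them by a narrow gap, with its nearest treated and untreated arrays at 7.891 and 7.893. The treated minus untreated difference of Pklr was -1.23 ± 0.30 (limma adjusted p = 0.0797), and that of its second probe was -0.85 ± 0.20 (limma adjusted p = 0.0628 over all tested probes). Pkm gave 0.74 ± 0.25 (limma adjusted p = 0.248), Pfkp gave 0.62 ± 0.21 (limma adjusted p = 0.247) and Pfkm gave -0.31 ± 0.16 (limma adjusted p = 0.541). None of these passed the threshold in the fit as described, but Pklr passed with the replicate number as a block (-1.23, limma adjusted p = 0.0265) and with median scaling (-1.46, limma adjusted p = 0.0177). Treated replicate 1 carried much of each size: without it Pklr gave -0.71 (limma adjusted p = 0.203), Pkm 0.38 (0.824), Pfkp 0.37 (0.809) and Pfkm -0.19 (0.992). Without treated replicate 3 Pklr gave -1.61 and passed (limma adjusted p = 0.00925). Myeloid cell markers were also higher on the treated FAK7 arrays. All 9 were detected on every FAK7 array, and their median signal was 11.15, 10.25 and 10.40 on treated and 9.90, 9.66 and 9.69 on untreated arrays, highest on treated replicate 1. Their summed signal was 9325 to 17342 on treated and 6904 to 8616 on untreated arrays. Liver markers overlapped, with summed signals of 143140 to 149015 on treated and 147803 to 151922 on untreated arrays. Erythroid marker sums were 20840 to 33747 on treated and 16068 to 18300 on untreated arrays. The median erythroid signal did not follow its sum. It overlapped, with 8.58, 8.79 and 8.98 on treated and 8.92, 8.85 and 9.11 on untreated arrays. The part of these cell markers in the isozyme differences was not tested, and in bulk RNA fewer cells of a type and less RNA per cell cannot be told apart.

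In FAK1, 1 of 7 genes did not overlap between treated and untreated arrays, against 15.5% of all genes. This was Pfkm, whose nearest treated and untreated arrays read 10.90 and 10.86. Its difference was 0.54 ± 0.16 (limma adjusted p = 0.139), and without treated replicate 3 it was 0.71 and passed (limma adjusted p = 0.0192). With the presence of Xist as a covariate, an alternative chosen after seeing the data that called 738 of all genes in FAK1, it was 0.73 (limma adjusted p = 0.022). Its second probe gave 0.68 ± 0.17 (limma adjusted p = 0.0785 over all tested probes). Hk1 gave 0.47 ± 0.19 (limma adjusted p = 0.350) with overlapping arrays. The skeletal muscle markers were also unequal on these arrays. Their median signal was 12.47, 12.57 and 10.62 on FAK1 treated and 4.62, 10.42 and 6.80 on FAK1 untreated. Treated replicates 1 and 2 were highest and untreated replicate 1 was lowest for the markers, while Pfkm on untreated replicate 1 lay between the other untreated arrays. The part of muscle RNA in the Pfkm difference was not tested. In FAK5, 1 of 7 genes did not overlap between treated and untreated arrays, against 12.5% of all genes, and this was Pfkl, with a difference of 0.58 ± 0.16 (limma adjusted p = 0.185). With Xist as a covariate Pfkl gave 0.77 in FAK5 (limma adjusted p = 0.0185), where that fit called 745 of all genes. All 3 treated FAK5 arrays and 1 of 3 untreated FAK5 arrays carried Xist.

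**Figure D3:**
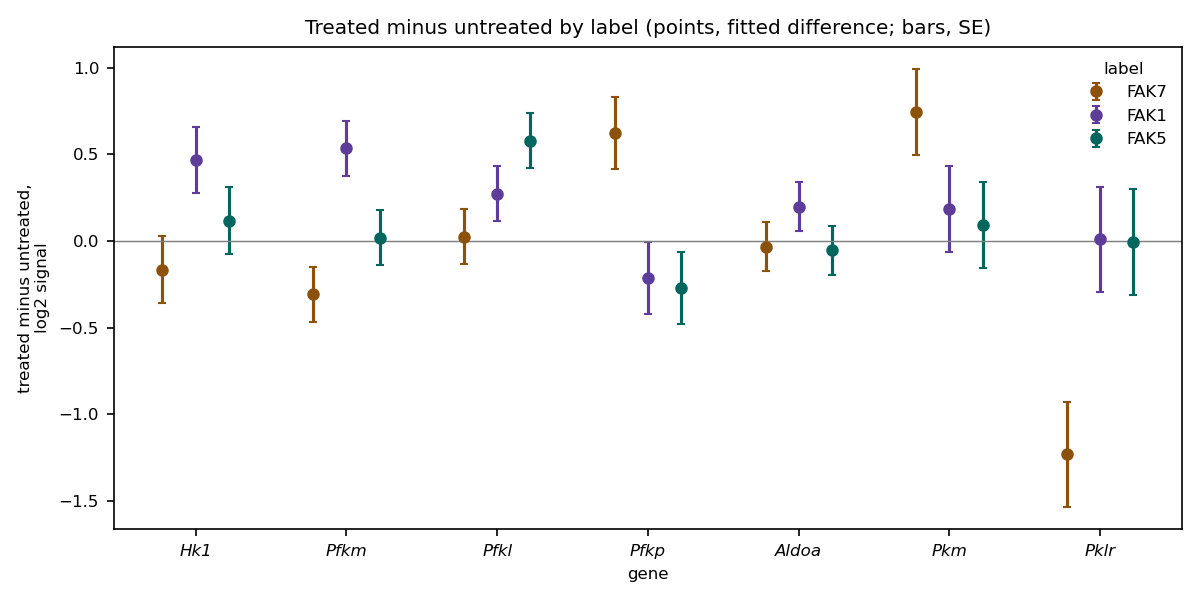
Treated minus untreated difference in log2 signal (vertical axis) for 7 genes in each label. Points are limma estimates from 3 treated and 3 untreated arrays per label, and bars are SE. Pklr in FAK7 lies lowest at -1.23, and none of the 21 differences passed an adjusted p of 0.05. Hk1 in FAK7 and Pklr in FAK1 and FAK5 were detected on no array, so their points compare background signal.

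Whether the treatment difference varied between labels was tested with an F test in the same limma fit. It passed for 0 of 7 genes, against 0.377% of all genes, and for 3 of 7 at an unadjusted p under 0.05 (12.1% of all genes). Pfkm came nearest (F = 7.19, limma adjusted p = 0.206), followed by Pfkp (F = 5.73, limma adjusted p = 0.269) and Pklr (F = 5.47, limma adjusted p = 0.282). Without FAK1 treated replicate 3, Pfkm passed (F = 12.5, limma adjusted p = 0.0488).

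**Figure D4:**
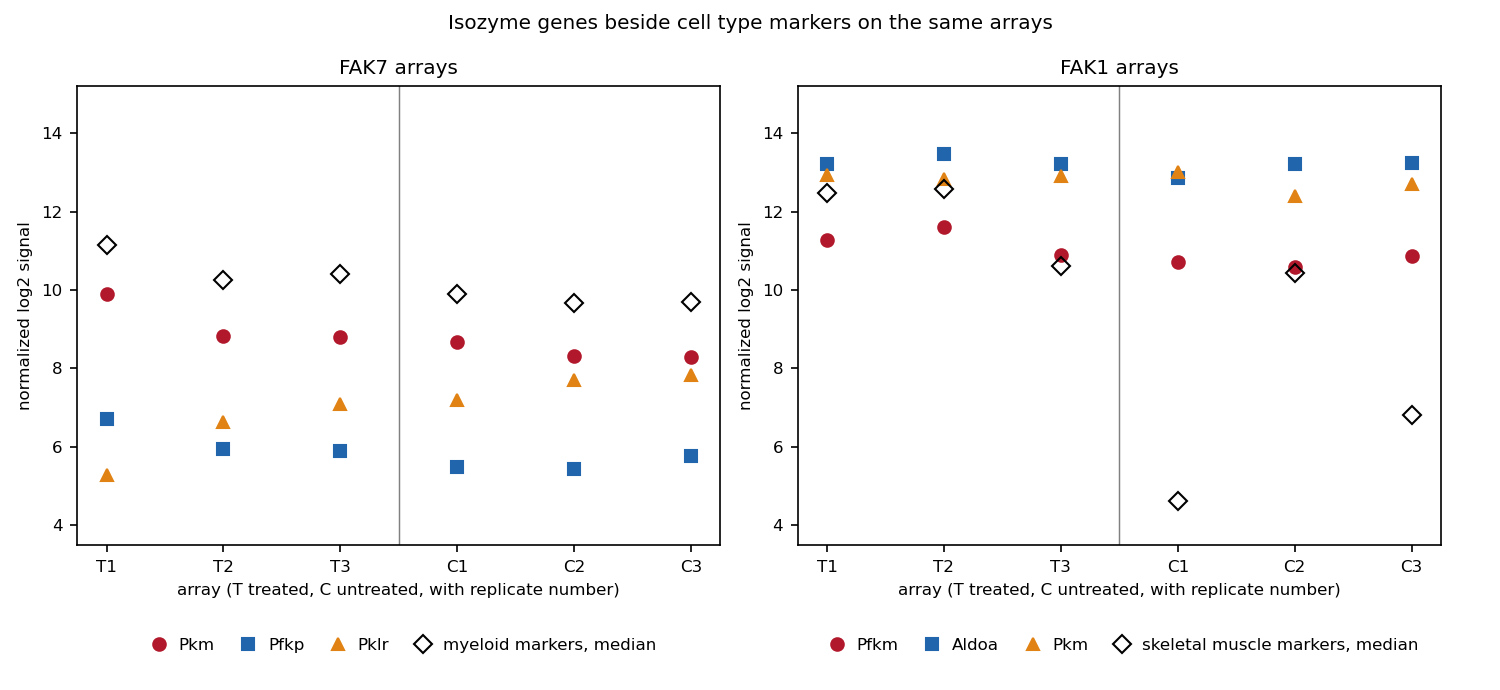
Normalized log2 signal (vertical axis) of 3 isozyme genes and the median of a marker list on each array of FAK7 (left) and FAK1 (right), treated arrays before untreated ones. Levels of different genes are not comparable with each other. In FAK7 the myeloid median is above 10 on the 3 treated arrays and below 10 on the 3 untreated arrays, and in FAK1 the muscle median spans 4.62 to 12.57.

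The other enzymes of glycolysis differed between labels in both directions. Of 17 listed genes, 13 were on the array and 10 were tested, and 8 of them differed between FAK7 and FAK1 (75.7% of all genes), 2 higher and 6 lower in FAK7. Between FAK7 and FAK5 all 10 differed (80.5% of all genes), 3 higher and 7 lower, and between FAK1 and FAK5 9 differed (60.7% of all genes), 3 higher and 6 lower. Their median differences were -0.79, -1.35 and -0.81 on the log2 scale, against -0.08, -0.02 and 0.03 for all genes. Hk3, a hexokinase of white blood cells, was higher in FAK7 than in FAK1 by 2.89 ± 0.24 and than in FAK5 by 3.02 ± 0.24, with detection on 6 FAK7, 5 FAK1 and 3 FAK5 arrays. Pgam2, the muscle phosphoglycerate mutase, was at least 345-fold lower in FAK7 than in FAK5. Eno3, the muscle enolase, was lower by -8.42 ± 0.40 in the same comparison, where the FAK5 arrays read 14.11 to 14.77, up to the brightest value on the scale. Pgam1, the general mutase, was higher in FAK1 than in FAK5 by 4.16 ± 0.13.

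Treatment calls in this list came from FAK1, where 2 of 10 genes rose and none fell (0.885% of all genes called). Pgam2 read 10.51, 10.77 and 8.76 in FAK1 treated and 4.50, 7.46 and 5.43 in FAK1 untreated (2 of 3 detected), a rise of 4.21 ± 0.56 (limma adjusted p = 0.00148). Eno3 read 11.83, 11.92 and 10.05 in FAK1 treated and 6.10, 9.24 and 6.95 in FAK1 untreated, a rise of 3.84 ± 0.56 (limma adjusted p = 0.00311). The rank of the FAK1 arrays for both genes followed that of the muscle marker median given above, highest on treated replicate 2 and lowest on untreated replicate 1. Pkm and Aldoa differed less on those arrays, by 0.19 ± 0.25 (limma adjusted p = 0.869) and 0.20 ± 0.14 (limma adjusted p = 0.665). The part of muscle RNA in these rises was not tested.

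Genes around glycolysis that serve glucose uptake and release also differed between labels. Of 5 tested glucose and lactate carriers, 3 differed between FAK7 and FAK1 (75.7% of all genes), 4 between FAK7 and FAK5 (80.5%) and 3 between FAK1 and FAK5 (60.7%), shares at or below those of all genes. Their median differences were -0.16, -0.30 and -0.66, and the named carriers are those with the largest ones. Slc2a2, the glucose carrier of liver and pancreatic islets, was at least 49.1-fold higher in FAK7 than in FAK5. Slc2a4, the insulin-responsive carrier of muscle and fat, was at least 31.2-fold lower in FAK7 than in FAK1 and at least 51.1-fold lower than in FAK5. Slc16a3, a lactate exporter, was at least 13.3-fold lower in FAK7 than in FAK5 and lower in FAK1, where 2 of 6 arrays detected it, than in FAK5 by -3.96 ± 0.16. All 7 tested genes of gluconeogenesis differed between FAK7 and FAK1, 4 higher and 3 lower (75.7% of all genes), and all 7 between FAK7 and FAK5, 5 higher and 2 lower (80.5%). Between FAK1 and FAK5, 5 of 7 differed, 3 higher and 2 lower (60.7%). Fbp1, the fructose bisphosphatase of liver, was at least 185-fold higher in FAK7 than in FAK5, and G6pc, which releases free glucose, at least 80.3-fold higher in FAK7 than in FAK1. Pck1, which begins glucose and glycerol synthesis from oxaloacetate, was instead lower in FAK7 than in FAK1 by -4.38 ± 0.29 and higher in FAK1 than in FAK5, where 3 of 6 arrays detected it, by 7.09 ± 0.29. Fbp2, the muscle bisphosphatase, was lower in FAK7 than in FAK5 by -3.50 ± 0.28.

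Regulators of the isozymes were measured as well. Of 6 tested genes that make or remove fructose 2,6-bisphosphate, the activator of phosphofructokinase, or regulate the pathway, 4 differed between FAK7 and FAK1 (75.7% of all genes), 5 between FAK7 and FAK5 (80.5%) and 3 between FAK1 and FAK5 (60.7%), which is near the shares of all genes. Gckr, the liver protein that holds glucokinase in the nucleus, was higher in FAK7 than in FAK1, where 1 of 6 arrays detected it, by 4.41 ± 0.15, and Khk, which phosphorylates fructose, by 4.70 ± 0.15. Pfkfb4 was lower in FAK7 than in FAK5 by -2.19 ± 0.18. Of 10 tested genes of pyruvate dehydrogenase and its kinases and phosphatases, which pass pyruvate to mitochondrial oxidation, 8 were lower in FAK7 than in FAK1 and none higher (40.3% of all genes were lower and 35.3% higher), with Dld lower by -5.15 ± 0.11. In this list 8 were lower and 2 higher in FAK7 than in FAK5 (40.5% and 40.0%), and 6 were higher and 3 lower in FAK1 than in FAK5 (32.9% and 27.8%). Of 4 tested splicing regulators that choose between the M1 and M2 exons of Pkm, 2 differed between FAK7 and each other label and 1 between FAK1 and FAK5, below the shares of all genes given above. Ptbp1, which favours the M2 exon, was higher in FAK7 than in FAK1 by 0.67 ± 0.11, higher in FAK7 than in FAK5 by 1.93 ± 0.11 and higher in FAK1 than in FAK5 by 1.27 ± 0.11. Hnrnpa1, the other called gene of this list, went the other way in FAK7. It was lower there than in FAK1 by -0.71 ± 0.21, with overlapping arrays, and than in FAK5 by -0.87 ± 0.21. Which exon was used was not tested. No gene of these 5 lists passed the treatment test in any label or over the labels.

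For each isozyme the genes whose pattern over the 6 group means was closest were found by the root mean square difference after centring. Pklr was closest to Msmo1, a sterol synthesis enzyme (0.0967 log2 units), and Ugt1a5, a glucuronosyltransferase (0.122), against a median of 1.38 over all genes. Pfkm was closest to Slc25a4, the muscle and heart ADP/ATP carrier (0.148), and Limch1 (0.166). Pkm was closest to St3gal6 (0.223) and Meox2 (0.235), and Pfkl to 1190005I06Rik (0.240) and Ifi27 (0.256). Aldoa was closest to Stim1, a calcium sensor (0.173), and Rab10 (0.184), Pfkp to Gdpd5 (0.135) and Rnf182 (0.180), and Hk1 to Vhl (0.0838) and Nktr (0.0855). These likenesses rest on 6 group means and mostly on the 3 labels. For Pklr, not detected in FAK1 and FAK5 by this probe, and for Hk1, not detected in FAK7, part of the pattern is background signal, so the distance and the order of their nearest genes cannot be read closely. Some genes near the other isozymes were also at background level in 1 label. Slc25a4 and Meox2 averaged 4.37 and 4.45 in FAK7, where the lowest detected signal of an array was 4.71 or more. For 1190005I06Rik the average was 4.62 in FAK5, where it was 4.68 or more.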

How the data were processed

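Total RNA of 18 samples, in 6 groups of 3, was measured on Illumina mouse bead arrays. The authors deposited a table of non-normalized intensity values with a detection p-value for each probe and array, per the file headers, and between 23.2% and 30.9% of the intensity values on an array are below 0. The deposited series matrix holds a processed intensity for the same probes on a linear scale and served as an alternative. The software that made these values is not given in the sources used here. Groups came from the sample labels. Probes were named through the platform annotation (34885 with 1 symbol, 18 with several, 10378 with none; 34807 matched by Entrez number).

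Processing with neqc (limma 3.58.1, R 4.3.3, offset 16) gave background-corrected, quantile-normalized log2 values. A probe was tested when its detection p was under 0.05 on every array of some group, and the brightest probe stood for each gene. Of the tested probes, 3210 without a usable symbol entered the probe fit only. All 18 arrays entered 1 limma fit of group means with an intensity trend. Treatment over the 3 labels was fitted on 6 profiles of group means with the label as a term. All p-values are two-sided and were adjusted by Benjamini-Hochberg over all tested genes or probes, with a threshold of 0.05. The number of arrays limits the precision. Named genes were all listed symbols, the 3 called genes with the largest difference per other list and label comparison, any list gene called for treatment, and 2 nearest patterns per isozyme, from which examples are given. Members and lists were chosen with earlier results of these data known. The fit was tested on simulated data. Alternatives changed the background correction, normalization, filter, probe choice, variances and arrays.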

Additional observations from a re-analysis of the deposited data

Results flagged for a closer look

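Pfkm, the muscle phosphofructokinase, had treatment differences of opposite sign in FAK7 and FAK1. Its treated minus untreated log2 difference was -0.31 in FAK7, where all 3 treated arrays lay below all 3 untreated arrays, and 0.54 in FAK1, where all 3 treated arrays lay above. The gaps were narrow. The nearest treated and untreated arrays read 7.891 and 7.893 in FAK7, and 10.90 and 10.86 in FAK1. Neither difference passed the adjusted threshold within its label (limma adjusted p = 0.541 in FAK7 and 0.139 in FAK1). The F test over the 3 labels gave a limma adjusted p of 0.206, and the difference between FAK7 and FAK1 alone was not tested. Groups of 3 arrays are too small to test for single outlying arrays.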

How the results depend on the processing

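Of 588 gene values of the label comparisons recomputed under alternatives, 575 kept their direction and side of the threshold, 11 lost the call and 2 reversed. The count of genes at least 4-fold apart was 4 to 6 for FAK7 minus FAK1, where it was 4 without background correction and in the treated groups alone, 4 to 5 for FAK7 minus FAK5 and 2 for FAK1 minus FAK5. The 11 were all Pfkp in FAK7 minus FAK5, which also gave -0.25 without background correction, -0.19 with median scaling and -0.13 with the mean of its probes. The reversals were that difference in the treated groups alone (0.088) and Pkm in FAK1 minus FAK5 with the mean of its probes (0.034). With median scaling the median of all genes was 0.15 for FAK7 minus FAK1 and 0.28 for FAK7 minus FAK5, against -0.08 and -0.02, and the share of called genes that were higher was 57.9% and 60.5%, against 46.7% and 49.7%.

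Of 791 treatment values, 752 were the same, 7 passed the threshold and 32 changed sign. In FAK7 a count of 1 called gene in place of 0 arose with median scaling (Pklr -1.46, limma adjusted p = 0.0177). It also arose with the replicate block (Pklr -1.23, limma adjusted p = 0.0265). These fits called 76 and 72 of all 11406 genes there, against 65 in the main fit. With Xist as a covariate, chosen after seeing the data, a count of 1 arose in FAK1 (Pfkm 0.73) and in FAK5 (Pfkl 0.77). That fit called 738 genes in FAK1, against 101 in the main fit, and 745 in FAK5, against 8. Without the untreated arrays carrying Eif2s3y, Pfkl gave 0.70 in FAK1. This left 1 untreated FAK1 array, the lowest of that label for Pfkl and assumed to vary like the other groups. Leaving out single arrays gave 0 to 1 called in FAK7, in FAK1 and for the difference between labels, and 0 in FAK5 and over the labels. The fits with 1 called member called 130, 243 and 127 of all genes in FAK7, in FAK1 and for the difference between labels. The cause of these changes was not tested.

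None of the treatment values that changed sign had passed the threshold. In FAK1, Pklr gave -0.029 without background correction, -0.026 with median scaling, -0.056 with the series matrix and -0.013 with the mean of probes. In FAK5, Pklr gave 0.055, 0.018 and 0.0077 with no background correction, the series matrix and the mean of probes, 0.073 without arrays carrying Eif2s3y and 0.043 with Xist. In FAK5, Pfkm gave -0.035 with the mean of probes, Aldoa 0.099 with median scaling and 0.0063 without arrays carrying Eif2s3y, and Pfkp 0.021 without them, against -0.27 with them. In FAK7, Pfkl gave -0.056 with median scaling. Leaving out single arrays gave ranges of -0.027 to 0.11 for Pfkl and -0.22 to 0.094 for Aldoa in FAK7, -0.052 to 0.080 for Pklr in FAK1, and -0.038 to 0.24 for Hk1, -0.064 to 0.092 for Pklr, -0.11 to 0.10 for Pfkm and -0.16 to 0.23 for Pkm in FAK5. Over the labels they gave -0.039 to 0.094 for Pfkp and -0.025 to 0.080 for Aldoa.

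Same-numbered treated and untreated arrays correlated at -0.043 to 0.28 in their deviations. Arrays of different numbers were not compared in this way, so these values cannot tell whether the numbers pair the arrays. The replicate block moved no call other than that of Pklr in FAK7. Of 175 values for the difference between labels, 174 were the same and Pfkm passed once. Dim probes bound what can be read: the brightest probe of Hk1 was not detected in FAK7, nor that of Pklr in FAK1 and FAK5.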
